A study of Homo sapiens with 15 samples.

Results

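Entries of a miRNA catalogue that may come from other kinds of RNA were followed through small RNA libraries of DiFi, a human cell line established from colorectal cancer. The 8 entries are hsa-miR-1268a, hsa-miR-1268b, hsa-miR-3609, hsa-miR-4284, hsa-miR-12135, hsa-miR-4484, hsa-miR-4497 and hsa-miR-10401-3p, out of 1619 in the count table, and are written below without the species prefix. They were picked by name, because they are catalogue entries possibly derived from other RNA classes that shift between cell pellets, plates and HDM in these libraries. Differences between those sample types are therefore given as descriptions, without a test. The samples were filtered HDM, unfiltered HDM and cell pellets, each as 1 HF7 and 1 HF6 library, plate cells as 3 HF7 and 3 HF6 plates numbered 1 to 3, and a single library of HDM media and of regular media. All carry the same tissue and cell line labels, no genotype, treatment or time is given, and the abbreviations HDM and HF are left unexplained by the labels. The extraction protocol speaks of extracellular samples for every library, so that HDM as material from outside the cells, and pellets and plates as cells, rests on the sample names. HDM media without cells was not analysed here, so no medium background stands beside the values.

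A miRNA is a short RNA cut from a hairpin by Drosha and Dicer and loaded onto an Argonaute protein, where its seed, bases 2 to 8, pairs with messenger RNA. Small RNA libraries also take up fragments of transfer RNA, ribosomal RNA, small nucleolar and Cajal body RNA, and transcripts of Alu repeats, which descend from the signal recognition particle RNA 7SL. Where such a fragment has the letters of a catalogued miRNA, read counting can assign it to that miRNA.

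The sequences are shown because the question of origin rests on their letters. They are the DNA letters of the deposited table, 5′ to 3′, with the seed in capitals, and 6 of the 8 have a mature form in the RefSeq table (GRCh38.p14), identical in each case.
miR-1268a: cGGGCGTGgtggtggggg
miR-1268b: cGGGCGTGgtggtgggggtg
miR-3609: cAAAGTGAtgagtaatactggctg
miR-4284: gGGCTCACatcaccccat
miR-12135: tAAAGGTTtgtttgtaaa
miR-4484: aAAAGGCGggagaagcccca
miR-4497: cTCCGGGAcggctgggc
miR-10401-3p: aCCTCGCCgtcccgcccgccg

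Shared letters were few. miR-1268a and miR-1268b share the seed GGGCGTG, which no other of the 1619 entries has, and miR-1268b is miR-1268a with TG added at its end. miR-3609 shares its seed only with miR-548ah-5p, and each of the other 5 seeds belongs to 1 entry. The entries have 18, 20, 24, 18, 18, 20, 17 and 21 bases in the order above, against a median of 22 over the table, so that 7 are shorter than the median and miR-3609 is longer. G and C make up 80% to 85.7% of miR-1268a, miR-1268b, miR-4497 and miR-10401-3p, 60% and 61.1% of miR-4484 and miR-4284, and 41.7% of miR-3609, against a median of 52.2%. For miR-12135 the share was 22.2%, and only 0.247% of the entries had a lower one.

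The letters of miR-4284 stand in a second place in the genome. Its listed location, chr7:73711327-73711344 on the plus strand of GRCh38, lies in an intron of STX1A, a neuronal syntaxin gene on the other strand (GENCODE 29). All 18 of its letters also stand, on the sense strand, in MT-TF, the mitochondrial transfer RNA for phenylalanine, at bases 49 to 66 of 71 (the gene spans chrM:577-647, plus strand). In the MT-TF sequence from GENCODE 29 the capitals mark the stretch that equals miR-4284.
MT-TF: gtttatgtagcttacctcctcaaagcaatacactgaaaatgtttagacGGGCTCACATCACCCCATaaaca
Of the 1619 entries, 2 had an exact match in a mitochondrial transfer RNA, miR-4284 and miR-12136, and 2 in a mitochondrial ribosomal RNA, the arms miR-4485-3p and miR-4485-5p. The RefSeq hairpin MIR4284 had a folding energy of -0.299 kcal/mol per base in ViennaRNA, and 8.27% of 1560 human hairpins were less stable by that measure.

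miR-12135 lies in an intron of NEO1, the gene of the netrin and repulsive guidance receptor neogenin, on its strand (chr15:73299962-73299979, plus). It had no exact match in a GENCODE 29 transcript, and GENCODE 29 annotates only the NEO1 intron at its location. With at most 1 mismatch it was found in transcripts of 2 genes. The most similar stretch of MT-RNR2, the large mitochondrial ribosomal RNA, is bases 1357 to 1374. It has 3 mismatches over 18 bases, 1 of them in the first 15. How many other entries come as close to MT-RNR2 was not counted. Capitals mark the bases of MT-RNR2 that differ from miR-12135.
MT-RNR2: taaaggttCgtttgtTCa
The hairpin MIR12135 was among the least stable, at -0.21 kcal/mol per base, with 1.22% of hairpins below it. The mature form ends at the last base of the 70-base hairpin, and that of miR-4484 ends at the last base of its 83-base hairpin. The hairpin MIR4484 was of ordinary stability, at -0.452 kcal/mol per base, equal to the median of all hairpins, and 50.1% were less stable. Beyond MIR4284, MIR12135 and MIR4484, no folding energy is given here for the entries followed.

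miR-3609 (chr7:98881700-98881723, plus) lies in an intron of TRRAP, a scaffold subunit of histone acetyltransferase complexes. Counted from the lower coordinate, it covers bases 4 to 27 of the 194-base RefSeq interval of SCARNA28, a small Cajal body RNA, a class that guides modification of spliceosomal RNAs. The RefSeq table gives no strand, so these may be the bases near either end of that RNA. miR-10401-3p is listed at 4 places on the short arm of chromosome 21. They are chr21:8206598-8206618, chr21:8250807-8250827, chr21:8389645-8389665 and chr21:8433832-8433852, all on the plus strand. Counted from the lower coordinate, the first of these is bases 611 to 631 of RNA45SN2, a RefSeq gene for the 45S ribosomal RNA precursor, and the last pair has the same bases of RNA45SN3 and RNA45SN1. In these genes the interval of 18S ribosomal RNA begins at base 3644, 3632 and 3655, with 5.8S and 28S after it, the order of the precursor along the plus strand. The entry thus lies before 18S, at the place of the external transcribed spacer. The remaining place lies in no RefSeq gene, and the entry had no exact match in a GENCODE 29 transcript. In all, 17 of the 1619 entries (1.05%) lay within a RefSeq gene of a structural RNA, with miR-3609 and miR-10401-3p among them.

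**Figure D1:**
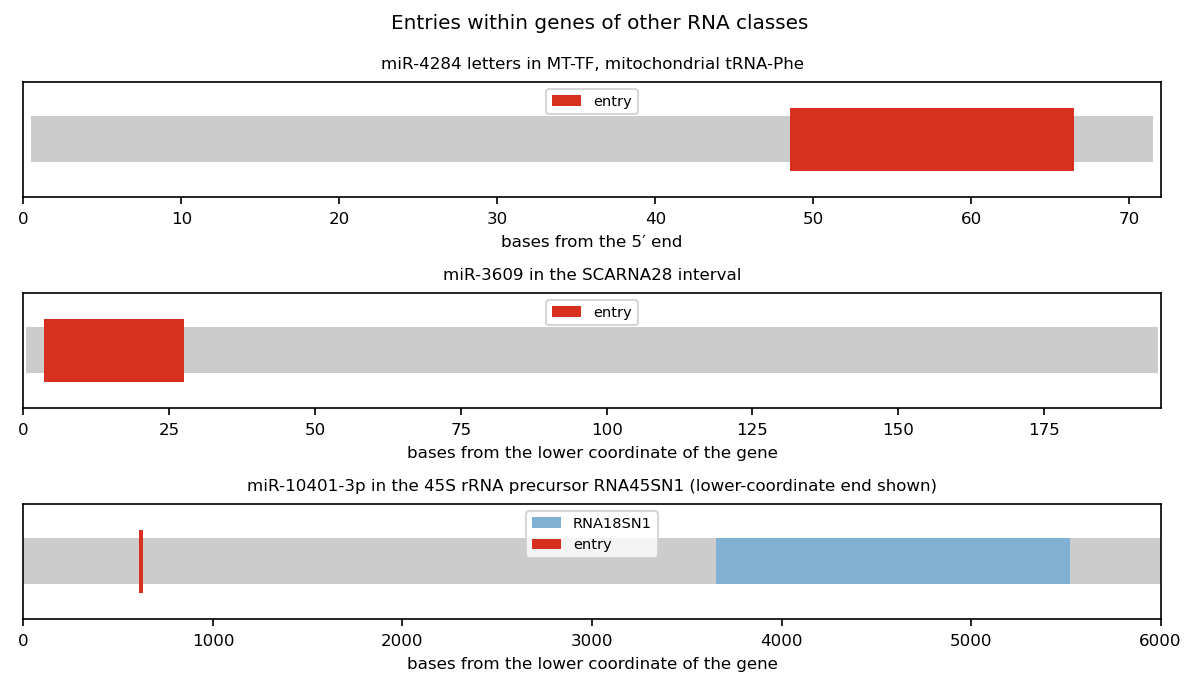
Position of 3 entries within genes of other RNA classes, in bases from the 5′ end (MT-TF) or from the lower coordinate of the gene (grey bar). miR-4284 fills bases 49 to 66 of MT-TF, miR-3609 covers bases 4 to 27 of SCARNA28, and miR-10401-3p covers bases 611 to 631 of RNA45SN1, ahead of 18S ribosomal RNA (blue).

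Without a mismatch miR-1268a was found in 2 GENCODE genes, and with 1 mismatch allowed its letters recur in many. The entry (chr15:22225308-22225325, minus strand) was found with at most 1 mismatch in transcripts of 56 GENCODE genes, where the median entry was found in 1 and only 2 entries were found in more. The matches include, at 1 mismatch, a misc_RNA gene named RF00017, the Rfam family of the signal recognition particle RNA. miR-1268b (chr17:80098831-80098850, plus, in an intron of CCDC40, a gene of motile cilia) was found in 3 genes. miR-4484 and miR-4497 had no match, with at most 1 mismatch, outside their own genes. miR-4484 (chr10:125819803-125819822, plus) lies opposite an intron of UROS, a gene of heme synthesis. miR-4497 (chr12:109833350-109833366, plus) lies opposite an untranslated exon of the cation channel gene TRPV4.

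Reads per library summed to between 205734 and 4896921 expected counts, and the HF7 pellet (313382) and HF7 unfiltered HDM (205734) were the shallowest. Levels are counts scaled to 1000000 per library (CPM), and 3 counts, the floor used for detection, correspond to 0.613 to 14.6 CPM. Intervals and floors cover counting error only. Together the 8 entries held 0.0536% to 0.246% of a library. The colorectal epithelial markers miR-192, miR-194, miR-215 and the miR-200 family were in the table with 8 of 8 members, at 235274 to 311882 CPM summed. Liver (miR-122-5p) and stromal (miR-143-3p) markers stayed at or below 0.831 and 1.06 CPM. Erythroid markers reached 8.36 CPM, neural 48.6, muscle 95.7 and endothelial 163, while leukocyte markers summed to 1379 to 4104 CPM. The HF6 pellet stood apart: of its 8 levels, 6 were the lowest of all 14 libraries (miR-1268a, miR-1268b, miR-4284, miR-12135, miR-4497 and miR-10401-3p), and that of miR-3609 was the highest. For each entry, ratios against pellets are therefore also given without it. Orders of means, overlaps of libraries, medians over all entries and Pearson r include it. In such bulk libraries, fewer cells that hold an RNA and less of it per cell cannot be told apart.

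**Figure D2:**
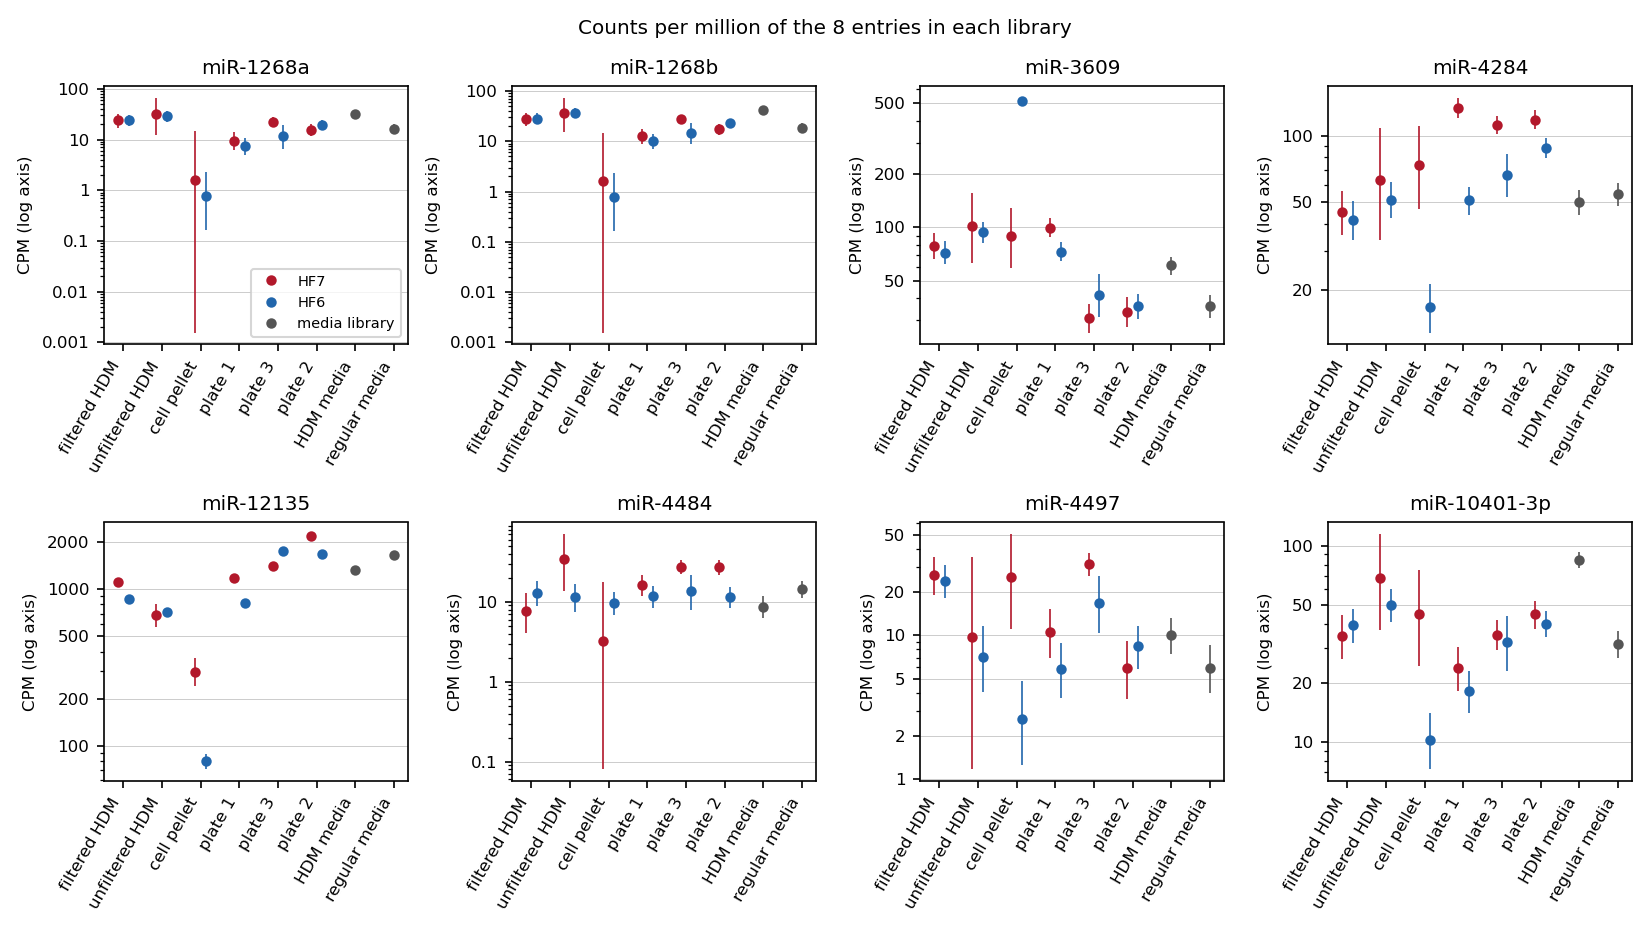
CPM on a log axis of the 8 entries in each library, with HF7 in red, HF6 in blue and media in grey; bars are exact 95% Poisson intervals of the count. miR-1268a and miR-1268b rest on 0.5 and 3 counts in the HF7 and HF6 pellets, miR-3609 reaches 514 CPM in the HF6 pellet, and miR-12135 is lowest in both pellets.

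miR-4284, with the letters of mitochondrial transfer RNA, was most abundant on plates. It stood at 44.96 and 41.5 CPM in HF7 and HF6 filtered HDM, at 63.2 and 51.4 CPM in unfiltered HDM, and at 73.4 and 16.7 CPM in pellets. Plates held 134 and 50.9 CPM (plate 1, HF7 and HF6), 112 and 66.6 CPM (plate 3), and 118 and 87.7 CPM (plate 2). Both filtered HDM libraries lay below all 6 plates, while pellets overlapped the plates. Unfiltered HDM overlapped them in total-count CPM but lay below all of them after scaling by TMM, edgeR's trimmed mean of M-values, at 53.8 and 46.9 CPM against 54.2 CPM on the lowest plate. Means were 43.2 ± 2.42 CPM in filtered HDM, 57.3 ± 8.33 CPM in unfiltered HDM and 45.1 ± 40.1 CPM in pellets (SD, n = 2 each), and 94.8 ± 32.0 CPM on plates (n = 6). From high to low the order was plates, unfiltered HDM, pellets and filtered HDM, and the spread of the pellets covered both HDM groups. The log2 ratio to plates was -1.13 for filtered HDM and -1.07 for pellets, or -0.37 for the HF7 pellet alone. Unfiltered HDM was above pellets by a log2 ratio of 0.35 in total-count CPM and below them, at -0.07, after TMM scaling; against the HF7 pellet alone it was -0.36.

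The entries most like miR-4284 over the 14 libraries were the mitochondrial ribosomal RNA entries. Among 283 entries that averaged 20 CPM or more, Pearson r of log2(CPM + 1) was 0.90 for miR-4485-3p, 0.85 for miR-4485-5p and 0.69 for miR-12135. The libraries differ in depth and sample type, so that r describes this set of samples only. miR-4485-3p stood at 596 and 576 CPM in HF7 and HF6 filtered HDM, 617 and 439 in unfiltered HDM, and 587 and 200 in pellets. On plates it stood at 2316 and 837 CPM (plate 1), 1954 and 1327 (plate 3), and 2239 and 1631 (plate 2). miR-12136, the other entry with an exact transfer RNA match, was not among the nearest. Its level in the HF6 pellet was the highest at 28842 CPM, where miR-4284 was lowest, and in the HF7 pellet it was 5090 CPM.

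**Figure D3:**
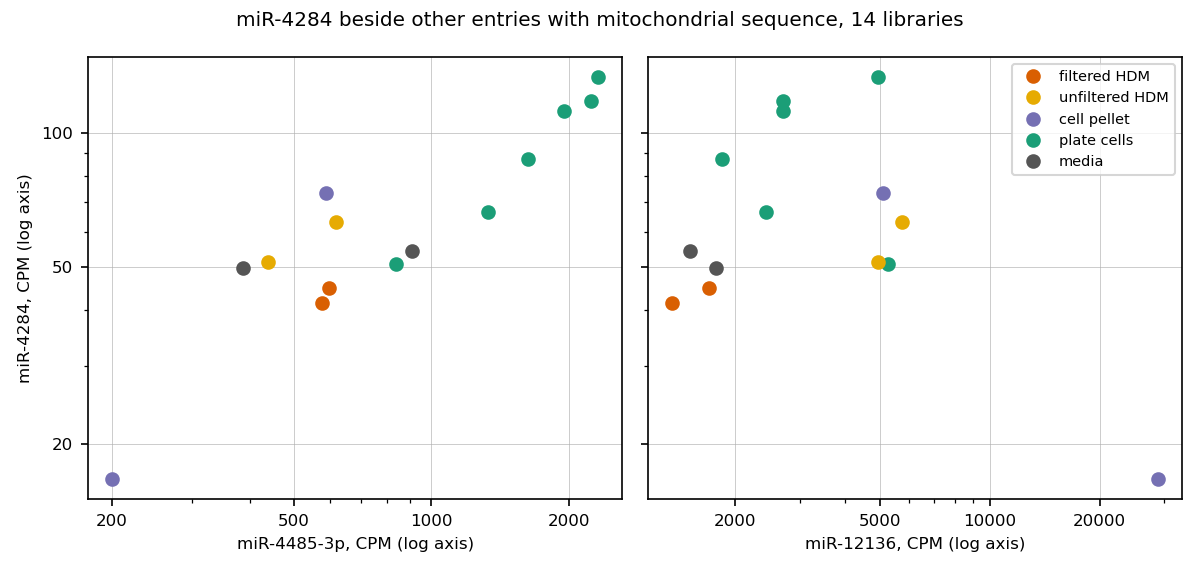
CPM of miR-4284 against CPM of miR-4485-3p (left) and of miR-12136 (right) in the 14 libraries, both on log axes. The HF6 pellet has 16.7 CPM of miR-4284, with 200 CPM of miR-4485-3p and 28842 CPM of miR-12136.

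miR-12135 was the most abundant of the 8, at a mean of 1128 CPM over all libraries and rank 79 of 1619. It stood at 1119 and 870 CPM in HF7 and HF6 filtered HDM, 680 and 715 CPM in unfiltered HDM, and 297 and 79.4 CPM in pellets. Plates held 1180 and 818 CPM (plate 1), 1417 and 1754 CPM (plate 3), and 2203 and 1677 CPM (plate 2). Pellets lay below every other library. Filtered HDM was 5.29-fold and unfiltered HDM 3.71-fold above pellets, and pellets were 8.02-fold below plates. Without the HF6 pellet, the log2 ratios were 1.74 for filtered HDM, 1.23 for unfiltered HDM and -2.35 for pellets to plates. Unfiltered HDM lay below all plates, at 698 ± 24.6 CPM (n = 2) against 1508 ± 482 CPM (n = 6), whereas filtered HDM overlapped plate 1. Its nearest entries were miR-7974 (r = 0.89), miR-1303 (0.86) and miR-374b-3p (0.86), and r with miR-3609 was -0.91.

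miR-3609, which lies within the SCARNA28 interval, differed widely between the pellets. It stood at 78.8 and 72.2 CPM in HF7 and HF6 filtered HDM, 102 and 94.4 CPM in unfiltered HDM, and 89.3 and 514 CPM in pellets. Plates held 99.8 and 73.2 CPM (plate 1), 30.9 and 41.7 CPM (plate 3), and 33.6 and 36.1 CPM (plate 2). The HF6 pellet, from 1969 counts, stood apart, and the next highest library was HF7 unfiltered HDM at 102 CPM (HF7 plate 1 at 112 CPM after TMM scaling). Filtered HDM was 3.997-fold and unfiltered HDM 3.07-fold below the pellet mean. With the HF7 pellet alone, the log2 ratio of filtered HDM was -0.24, that of unfiltered HDM was 0.14 (-0.24 after TMM scaling), and the HF7 pellet was above the plate mean by 0.77. The direction of unfiltered HDM against pellets thus turns with 1 library in total-count CPM. The nearest entries were miR-152-3p (r = 0.87), miR-12136 (0.83) and miR-320d (0.81).

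miR-1268a and miR-1268b were scarce in pellets and cannot be counted apart there. Both held fractional counts in 7 of 14 libraries, and in the HF7 pellet each held 0.5. Their sum was 88 and 129 counts in HF7 and HF6 filtered HDM, 14 and 149 in unfiltered HDM, and 1 and 6 in pellets. As CPM the sum was 51.4 and 52.0 in filtered HDM, 68.0 and 66.0 in unfiltered HDM, and 3.19 and 1.57 in pellets. On plates it was 22.1 and 17.5 CPM (plate 1), 49.8 and 26.5 (plate 3), and 32.7 and 42.3 (plate 2). Pellets lay below all other libraries, and unfiltered HDM above all plates. Filtered HDM was above all plates in total-count CPM by a small margin over HF7 plate 3, and after TMM scaling both libraries, at 49.4 and 47.6 CPM, were below that plate at 49.9 CPM. From the pooled counts, unfiltered HDM was 39.2-fold above pellets, with a 95% counting interval of 18.6 to 99.0, and filtered HDM 30.6-fold (14.6 to 77.1). Ratios of group means were lower. For miR-1268a and miR-1268b they were 25.5 and 30.9 in unfiltered HDM (18.6 and 22.6 after TMM scaling). In filtered HDM they were 20.1 and 23.4 (15.7 and 18.3 after TMM scaling). Without the HF6 pellet 1 summed count is left, below the 3-count floor of 9.57 CPM in that library, and the ratio was 20.7 for unfiltered HDM (3.67 to 824) and 16.2 for filtered HDM (2.88 to 644). HDM was closer to plates: miR-1268a averaged 23.9 ± 0.104 CPM in filtered HDM and 30.3 ± 1.82 CPM in unfiltered HDM (n = 2 each), against 14.3 ± 5.78 CPM on plates (n = 6). Beyond miR-1268b (r = 0.997), miR-1268a was most like miR-92a-1-5p (0.97) and miR-93-3p (0.95), minor arms of the miR-17-92 and miR-106b-25 clusters.

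miR-10401-3p, located in the ribosomal RNA spacer, stood at 34.4 and 39.1 CPM in HF7 and HF6 filtered HDM, 68.0 and 49.6 CPM in unfiltered HDM, and 44.7 and 10.2 CPM in pellets. Plates held 23.6 and 18.03 CPM (plate 1), 35.1 and 32.1 CPM (plate 3), and 44.6 and 39.9 CPM (plate 2). HF7 unfiltered HDM and the HF7 pellet rested on 14 counts each, with 95% counting intervals of 37.2 to 114 and 24.4 to 75.0 CPM. The intervals of HF6 unfiltered HDM (40.9 to 59.7 CPM) and HF7 plate 2 (37.7 to 52.3 CPM) overlapped. Unfiltered HDM was above all plates and both pellets, by log2 ratios of 0.87 and 1.10, and by 0.40 over the HF7 pellet alone. After TMM scaling it stayed above all plates (0.66), but the ratio to pellets was 0.68, that to the HF7 pellet alone 0.02, and HF6 unfiltered HDM (45.3 CPM) was below the HF7 pellet (50.95 CPM). The opposite arm of the hairpin, miR-10401-5p, had at most 12 counts in any library. The nearest entries were miR-326 (r = 0.88), miR-7977 (0.86) and miR-188-5p (0.86).

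miR-4484 and miR-4497 rested on few reads. miR-4484 had 13 and 32 counts in HF7 and HF6 filtered HDM (7.59 and 12.9 CPM), 7 and 26 in unfiltered HDM (34.0 and 11.5 CPM), and 1 and 37 in pellets (3.19 and 9.66 CPM). On plates it stood at 16.1 and 11.7 CPM (plate 1), 27.3 and 13.6 (plate 3), and 27.0 and 11.5 (plate 2). Pellets lay below all plates, by a log2 ratio of -1.48, which was -0.89 for the HF6 pellet alone. The 1 count of the HF7 pellet gave a ratio of 0.175 to the pooled plates (95% counting interval 0.00442 to 0.982). After TMM scaling the HF6 pellet, at 12.8 CPM, was above HF6 plate 1 (12.4 CPM) and HF6 plate 2 (11.05 CPM), so that pellets and plates overlapped. miR-4497 had 45 and 59 counts in HF7 and HF6 filtered HDM (26.3 and 23.8 CPM), 2 and 16 in unfiltered HDM (9.72 and 7.09 CPM), and 8 and 10 in pellets (25.5 and 2.61 CPM). On plates it stood at 10.5 and 5.83 CPM (plate 1), 31.2 and 16.8 (plate 3), and 5.94 and 8.36 (plate 2). Its ratio of unfiltered HDM to pellets was -0.74 in log2, 1.69 without the HF7 pellet and -1.60 without the HF6 pellet, so the data fix no order. No entry followed either closely, the highest r being 0.71 with miR-15b-3p for miR-4484 and 0.70 with miR-181c-3p for miR-4497.

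Over all entries that averaged 5 CPM or more across the libraries compared, the share that separated the sample types was high. Unfiltered HDM lay above both pellets for 47.8% of entries and for 5 of the 8, and below them for 17.4% and 0 of the 8. Filtered HDM lay above both pellets for 48.8% of entries and 3 of the 8, and below for 23.2% and 1. Both pellets lay below all plates for 26.9% of entries and 4 of the 8, and above for 8.98% and 0. Unfiltered HDM lay above all plates for 23.4% and 3, and below for 9.18% and 1. Filtered HDM lay above all plates for 23.2% and 2, and below for 16.7% and 1. After TMM scaling, a setting chosen for these counts after seeing the data, unfiltered HDM lay above both pellets for 30.9% of entries and 3 of the 8, and below for 27.8% and 1 (miR-3609). Filtered HDM against pellets gave 36.5% and 3 above, and 32.5% and 1 below. Pellets lay below all plates for 18.0% and 3, and above for 14.8% and 0. Against all plates, unfiltered HDM lay above for 15.0% and 3 and below for 14.5% and 2, and filtered HDM above for 18.9% and 0 and below for 20.3% and 1. The choice of the 8 used these differences, so nothing is read from their counts. The median log2 ratio of all entries was itself 0.61 for unfiltered HDM and 0.44 for filtered HDM against pellets and -0.34 for pellets against plates in total-count CPM, and 0.11, 0.04 and -0.05 after TMM scaling.

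**Figure D4:**
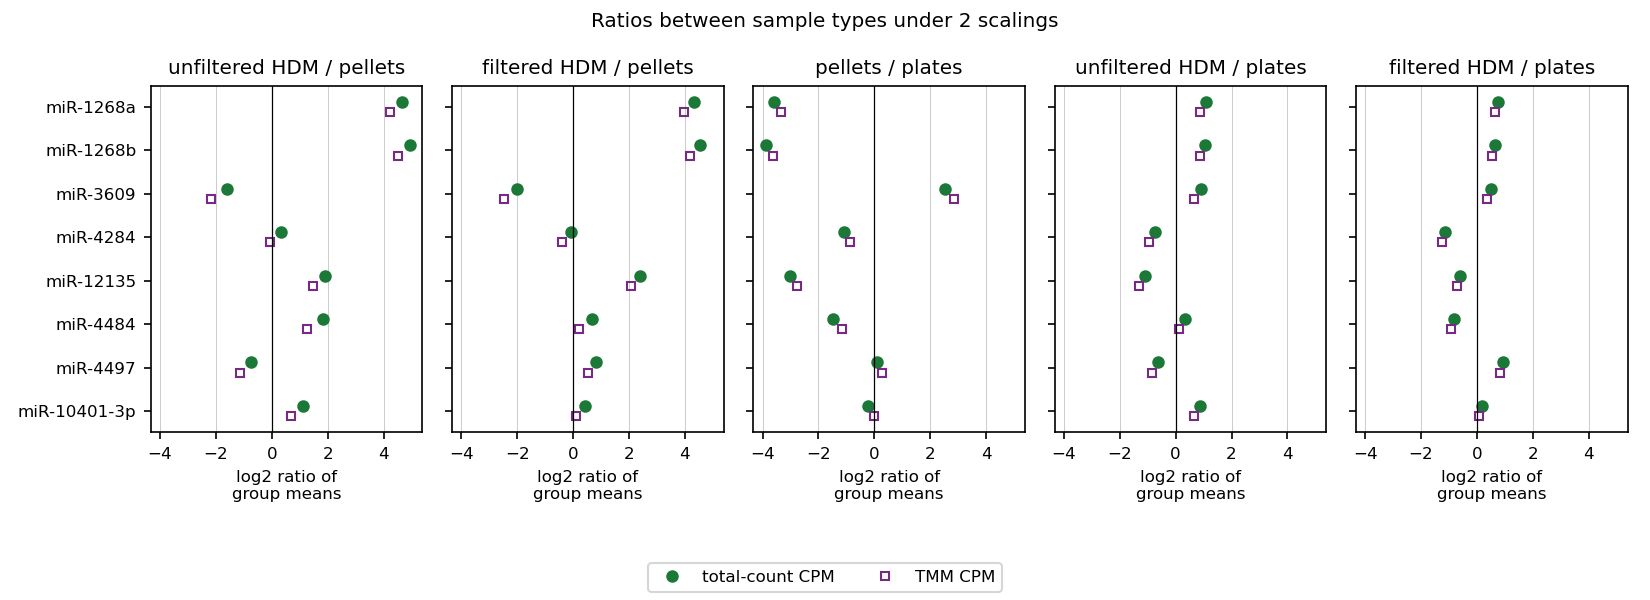
log2 ratios of group means in 5 comparisons of sample types, in total-count CPM (filled circles) and TMM-scaled CPM (open squares), with no test. miR-1268a and miR-1268b, with 7 counts in both pellets together, lie above 3.9 in HDM against pellets under both scalings, and miR-4284 lies at 0.35 and -0.07 in unfiltered HDM against pellets.

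Contrasts that the choice of the entries did not name were tested with edgeR's quasi-likelihood test over 535 entries, with Benjamini-Hochberg adjusted p. All 8 were among the entries tested. Each fit took its spread from all 12 replicated libraries, not only from the groups compared. Nothing in the labels says that libraries of a group are separate cultures, so these p-values measure the spread between these samples, which may be technical.

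The comparison of filtered with unfiltered HDM asks what filtration changes. miR-4497 was the entry with the largest difference of the 8, at 25.03 ± 1.76 CPM in filtered HDM and 8.41 ± 1.86 CPM in unfiltered HDM (n = 2 each). Its log2 fold change was 1.79 ± 0.95 (SE), higher within both HF7 (1.43) and HF6 (1.75), and it was not called (edgeR adjusted p = 0.999, unadjusted p = 0.0826). The shallow HF7 unfiltered library held 2 counts of it. Earlier results of these data had already named miR-4497 in this comparison, so its p-values here are descriptive. The SE also carries the spread of pellets (25.5 and 2.61 CPM) and of plates (5.83 to 31.2 CPM), so it is not that of HDM libraries alone. A fit of the 4 HDM libraries alone gave 1.82 ± 0.37 and an edgeR adjusted p of 0.0161, and over the other alternatives the adjusted p ran from 0.485 to 1. miR-12135 stood at 0.66 ± 0.48, and the other 6 between -0.68 ± 0.59 (miR-4484) and -0.24 ± 0.79 (miR-3609). edgeR called 0 of 535 entries (0%) and 0 of the 8, with 10 entries at an unadjusted p under 0.05, and DESeq2 called 0. Without a test, filtered HDM lay above unfiltered HDM in both libraries for 2 of the 8 (15.4% of entries), miR-12135 and miR-4497. It lay below in both for 5 (26.7% of entries), the exception being miR-4484.

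HF7 and HF6 plates were compared to ask whether the HF number mattered in cells. The entry with mitochondrial transfer RNA letters was higher on every HF7 plate than on any HF6 plate, at 121 ± 11.2 CPM for miR-4284 on HF7 plates and 68.4 ± 18.5 CPM on HF6 plates (n = 3 each). The log2 fold change was 0.81 ± 0.39, which was not called (edgeR adjusted p = 0.999, unadjusted p = 0.0580). The fit of HF7 against HF6 plates had no term for plate number, so its SE also carries the differences between plate numbers. With plate number as a block it called no entry either. By plate number, the log2 ratio of HF7 to HF6 was 1.39 on plate 1, 0.75 on plate 3 and 0.43 on plate 2. miR-4485-3p, which tracked miR-4284 above, stood at 0.77 ± 0.32 (edgeR adjusted p = 0.999), and miR-12136 at 0.06 ± 0.57.

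miR-4484 was also higher on all HF7 plates, at 23.5 ± 6.36 CPM against 12.3 ± 1.20 CPM on HF6 plates (n = 3 each), a log2 fold change of 0.89 ± 0.41 (edgeR adjusted p = 0.999, unadjusted p = 0.0504). Of the 8 entries, 2 thus separated the HF numbers upward, where 1.69% of all entries did, and 0 downward, where 0.964% did. The other 6 lay between 0.09 ± 0.63 (miR-3609) and 0.65 ± 0.66 (miR-4497). edgeR called 0 of 535 entries (0%) and 0 of the 8, and 7 entries had an unadjusted p under 0.05; DESeq2 called 0.

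Plate 1 was compared with plates 2 and 3, since the plate number is a label that HF7 and HF6 share. Earlier results of these data had already set plate 1 apart, so the p-values and counts of calls for it are descriptive. miR-3609 was higher on plate 1, at 86.5 ± 18.9 CPM (n = 2) against 35.6 ± 4.61 CPM on plates 2 and 3 (n = 4). Its log2 fold change was 1.48 ± 0.44 (edgeR adjusted p = 0.0216), from 1.63 within HF7 and 0.91 within HF6. It was the 1 of 8 called, where 140 of 535 entries (26.2%) were called, 79 higher (14.8%) and 61 lower (11.4%). The call did not hold when a library was left out in 5 of 6 cases. Its adjusted p was 0.161 without HF7 plate 1, 0.114 without HF7 plate 3, 0.0660 without HF7 plate 2, 0.0653 without HF6 plate 1 and 0.0557 without HF6 plate 2 (edgeR). With DESeq2 the adjusted p was 0.00613, and the lowest of any alternative was 7.5e-06, without the low-count filter. Marker sums also differed on plate 1 without overlap. Neural markers summed to 35.0 to 43.9 CPM on plate 1 against 12.1 to 20.3 CPM on plates 2 and 3, muscle to 17.7 to 19.9 against 7.17 to 14.1 CPM, and endothelial to 114 to 129 against 53.8 to 103 CPM. The neural and muscle lists each hold a marker that never exceeded 1 count. Stromal and liver markers reached 1.06 and 0.751 CPM on plate 1, against 0.594 CPM and 0 on plates 2 and 3. These rest on a few reads: miR-143-3p and miR-122-5p each had at most 4 counts in any library. Both plate 1 libraries were below the 3-count floor for miR-122-5p. Colorectal markers were lower, at 281778 to 290270 against 292973 to 307406 CPM, while leukocyte and erythroid sums overlapped. The part of these differences in the plate 1 results was not tested.

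The miR-1268 entries and miR-10401-3p had fold changes below 0. miR-1268a averaged 8.50 ± 1.52 CPM on plate 1 (n = 2) against 17.2 ± 4.65 CPM on plates 2 and 3 (n = 4), a log2 fold change of -0.86 ± 0.31 (edgeR adjusted p = 0.0560). Summed before the fit, miR-1268a and miR-1268b gave -0.77 ± 0.27 and passed the threshold (edgeR adjusted p = 0.0466). For miR-1268a the adjusted p ran from 0.0221 to 0.350 over the alternatives. miR-1268b alone stood at -0.71 ± 0.30 (edgeR adjusted p = 0.0939). miR-10401-3p stood at -0.67 ± 0.32 and miR-12135 at -0.62 ± 0.34 (edgeR adjusted p = 0.138 and 0.198), and both passed in limma-voom and in a fit of the 6 plates alone. For each of these 4 entries both plate 1 libraries lay below all 4 others, as they did for 34.0% of all entries, and 1 entry (miR-3609) lay above, as did 21.4%. miR-4497, miR-4484 and miR-4284 stood at -0.55 ± 0.48, -0.36 ± 0.41 and 0.12 ± 0.38 (edgeR adjusted p = 0.433, 0.560 and 0.840), and miR-4284 turned to -0.08 when total counts were the only scaling.

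Plate 3 was then compared with plate 2. miR-4497 stood at 24.0 ± 10.1 CPM on plate 3 and 7.15 ± 1.71 CPM on plate 2 (n = 2 each), higher within HF7 (log2 ratio 2.39) and within HF6 (1.01). Its log2 fold change of 1.81 ± 0.52 was not called (edgeR adjusted p = 0.165), and it passed in limma-voom (adjusted p = 0.0137), without the low-count filter (0.0155) and in the fit of the 6 plates (0.0108). Leaving out a library gave an adjusted p of 0.179 to 0.987 (edgeR). The other 7 lay between -0.30 ± 0.35 (miR-10401-3p) and 0.20 ± 0.46 (miR-4484). edgeR called 1 of 535 entries (0.187%) and 0 of the 8, with 44 entries at an unadjusted p under 0.05. Without a test, miR-4497 lay higher and miR-10401-3p lower on both plate 3 libraries, as did 17.4% and 25.4% of all entries.

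**Figure D5:**
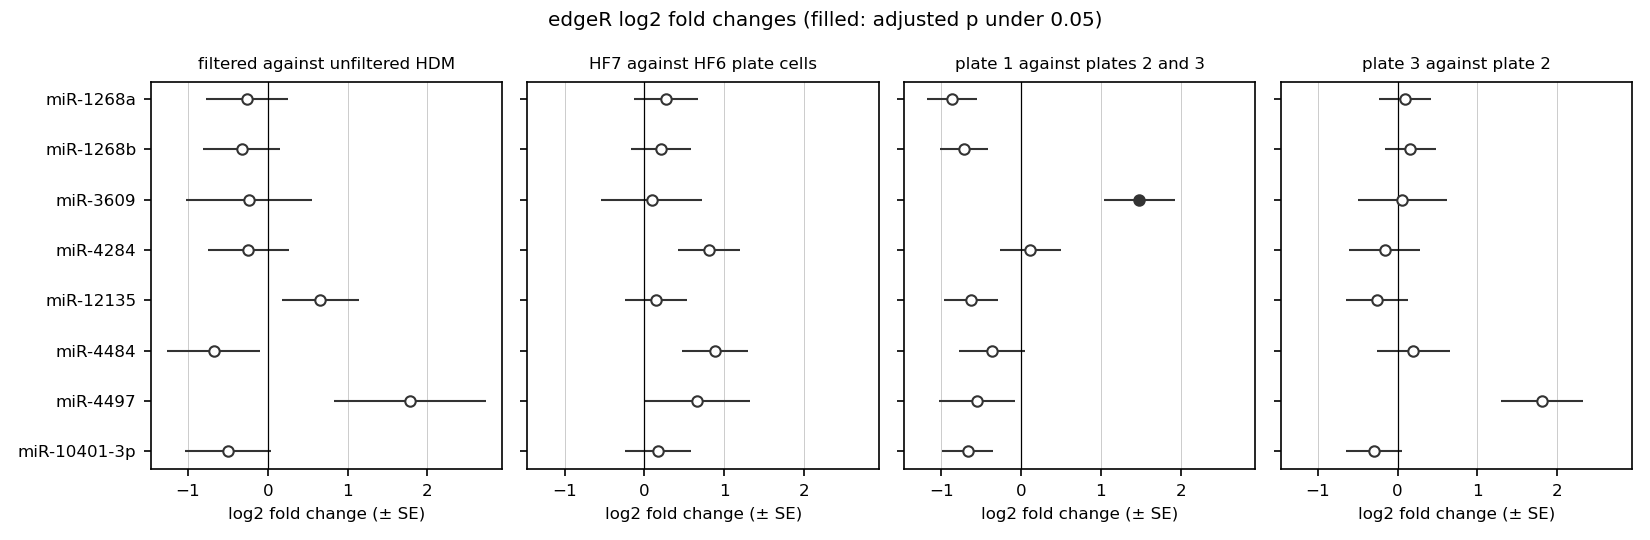
edgeR log2 fold change ± SE of the 8 entries in the 4 tested comparisons; a filled point has an adjusted p under 0.05. miR-3609 on plate 1 (1.48) is the 1 filled point, and miR-4497 stands at 1.79 in filtered HDM and 1.81 on plate 3.

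A list of 58 other entries named for overlap with other RNA classes or repeats had 39 members in the table and 28 tested. On plate 1, 4 of the 28 were called higher (14.8% of all entries were) and 6 lower (11.4% of all entries were), with a median log2 fold change of -0.57 against -0.01 over all entries, and in the other 3 comparisons 0 were called. miR-1246, which resembles U2 small nuclear RNA, was higher on plate 1 by a log2 fold change of 3.13 ± 0.32 (edgeR adjusted p = 9.8e-06). miR-12136 was higher by 1.27 ± 0.45 (edgeR adjusted p = 0.0472). miR-4485-3p stood at 0.01 ± 0.36, and miR-1248, within a small nucleolar RNA, at -0.43.

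The media libraries are single and allow no test. HDM media had 84.6 CPM of miR-10401-3p, the highest of all libraries, against 31.4 CPM in regular media, a ratio of 2.69 with a counting interval of 2.23 to 3.26. The ratio of HDM media to regular media was 2.23 (1.74 to 2.90) for miR-1268b, 1.94 (1.48 to 2.58) for miR-1268a, 1.70 (1.41 to 2.06) for miR-3609 and 1.68 (1.04 to 2.77) for miR-4497. miR-12135 and miR-4484 were below 1, at 0.800 (0.774 to 0.827) and 0.611 (0.406 to 0.908). The interval of miR-4284 included 1, at 49.9 CPM in HDM media and 54.3 CPM in regular media. These ratios and intervals use total-count CPM only, and which intervals include 1 may change with the scaling. After TMM scaling miR-4284 stood at 43.4 CPM in HDM media and 53.2 CPM in regular media, and miR-4497 at 8.67 and 5.80 CPM. HDM media levels of miR-1268a and miR-1268b, at 31.7 and 41.5 CPM, were the highest of the 14 libraries.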

How the data were processed

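Per the labels' protocols, RNA came from miRNeasy columns and libraries from the NEXTflex Small RNA-Seq kit. The submitters' processing notes list cutadapt 2.10, Bowtie 1.3.1, FastQC and GRCh38. The deposited values are expected counts per mature miRNA, not normalized, in 1 table of 1619 entries and 14 libraries. Some of them hold fractions. How these arose, the miRNA release and how reads with several matches were counted are not given in the sources used here. Reads of near-identical sequence (miR-1268a and miR-1268b, or a transfer RNA and miR-4284) cannot be told apart in these counts.

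The 8 entries, the lists and the contrasts were chosen with earlier results of these data known, and miR-4497 and plate 1 had been named in them. Entries named besides the 8 are the 3 nearest by Pearson r, the 4 most abundant of the list of other RNA classes, and the entries that share a hairpin or a mitochondrial match with 1 of the 8.

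Counts rounded to whole numbers were fitted in edgeR 4.0.16 (TMM, filterByExpr, quasi-likelihood), for 12 libraries in 5 groups (7 residual degrees of freedom) and, for plate numbers, in 6 groups (6 degrees of freedom). The filter kept 535 entries with 99.96% of the counts. The fits were also run on simulated data with a common spread for all entries, a simpler setting than these data, and nothing is drawn from that here. A call is an adjusted p under 0.05. Alternatives were DESeq2 1.42.0, limma-voom (limma 3.58.1), other scalings, filters and rounding, fewer libraries and a replicate block. Replicate libraries differed by a chi-square per degree of freedom of 11.1 to 393, so none is a copy. Plate numbers paired the HF7 and HF6 plates: deviations from the group means correlated at 0.74, 0.56 and 0.48 for plates 1, 2 and 3. Sequences were matched to GENCODE 29 transcripts and RefSeq tables (GRCh38.p14), and hairpins folded with ViennaRNA 2.7.2.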

Additional observations from a re-analysis of the deposited data

Results flagged for a closer look

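miR-4284 on plate 1 went opposite ways in HF7 and HF6. Plate 1 was above both other plates in HF7, with a log2 ratio of 0.22 to their mean, and below both in HF6, at -0.60. A fit of the 6 plates with a term for the difference between HF7 and HF6 gave 0.86 ± 0.47, which did not pass (edgeR adjusted p = 0.983), and 0 of 589 entries did. miR-4484 was lower in filtered than in unfiltered HDM in HF7, at a log2 ratio of -2.16 (13 counts in filtered and 7 in unfiltered HDM). It was higher in HF6, at 0.16 (32 counts in filtered and 26 in unfiltered HDM). Each side is 1 pair of libraries, and this difference was not tested.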

How the results depend on the processing

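Counts of calls moved with the fit. For filtered against unfiltered HDM (0 calls), limma-voom called 1 entry, no low-count filter 3, grouping plates by number 3, the replicate block on HF number 3 and the 4 HDM libraries alone 14; leaving out 1 library gave 0. HF7 against HF6 plates gave 0 calls in every alternative, with plate number as a replicate block too. For plate 1 (140 calls), limma-voom called 216, and leaving out 1 library gave 60 (without HF6 plate 1) to 129, with 72 without HF7 plate 1. For plate 3 against plate 2 (1 call), DESeq2, RLE factors and total counts each called 6, limma-voom 14, no filter 10, a minimum of 50 counts 0, rounding down 5, the replicate block 5 and the 6 plates alone 16; leaving out 1 library gave 0 to 3. HF number did not pair HDM and pellet libraries (correlations of 0.05, -0.03 and 0.10), and the block changed no call of the 8 entries.

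Some signs turned. miR-3609 in HF7 against HF6 plates was -0.22 in limma-voom and -0.041 with the replicate block, and on plate 3 it was -0.028 without the filter, -0.0038 with 50 counts and -0.0013 rounded down. miR-4284 on plate 1 was -0.039 in limma-voom and -0.077 by total counts. Leaving out 1 library, folds of HF7 over HF6 plates ran from -0.023 to 0.71 (miR-1268a), -0.10 to 0.59 (miR-1268b), -0.73 to 0.53 (miR-3609), -0.10 to 0.37 (miR-12135), -0.26 to 1.13 (miR-4497) and -0.057 to 0.46 (miR-10401-3p). On plate 1 miR-4284 ran from -0.74 to 0.62. On plate 3 they ran from -0.43 to 0.38 (miR-1268a), -0.32 to 0.44 (miR-1268b), -0.17 to 0.35 (miR-3609), -0.54 to 0.12 (miR-4284) and -0.40 to 0.96 (miR-4484). Of the tested folds of the 8 entries, 433 kept side and sign, 27 turned, 19 newly passed and 5 were lost; the cause was not tested. Of the untested ratios and levels, 345 moved by less than the spread and 7 by more, 3 of them ratios of miR-4497 without the HF7 pellet. For a ratio, the spread was the larger log2 SD of the groups compared. With 2 pellets, leaving out 1 can hardly move a ratio beyond it, so the 345 do not measure stability. The turn of miR-3609 in unfiltered HDM against pellets, from -1.62 to 0.14 without the HF6 pellet, counted as less than the spread. Depth limits the 2 shallow HF7 libraries, where 3 counts are 9.57 CPM (pellet) and 14.6 CPM (unfiltered HDM).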
